A study of Rattus norvegicus with 4 samples.

Results

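Sugar nucleotides are the activated sugars from which glycan chains are built, and inositol is the ring alcohol of phosphoinositide lipids. The genes described here are 10 rat genes of these routes: Mpi, Pmm1, Pmm2, Gmppa and Gmppb of GDP-mannose synthesis, Gfpt1 and Uap1 of the hexosamine pathway, Nans of sialic acid synthesis, Isyna1 of inositol synthesis and Slc33a1. The last of them encodes a transporter that brings acetyl-CoA into the endoplasmic reticulum (ER), so it is not a synthesis enzyme. The members were chosen by name with their change in these arrays known, so their differences between the groups, the calls and the standard errors given for them are a description and no test of them. Of the 10 genes, 8 were measured, by 14 probe sets that are each paired with 1 gene, among 14217 genes and 31042 probe sets in all. Another probe set is paired with both Uap1 and Uap1l2 and is given apart. No probe set is listed for Gfpt1, which was not analysed here.

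Primary cardiomyocytes from the ventricles of neonatal Sprague-Dawley rats, 1 to 2 days old, were infected for 24 hours. The Ad-atrogin-1 group (2 arrays) received an adenovirus with atrogin-1 and GFP, and the Ad-GFP group (2 arrays) one with GFP alone, so both groups carry a virus and GFP and no uninfected cells were measured. Atrogin-1 is a muscle ubiquitin ligase subunit encoded by Fbxo32. The arrays of a group are labelled as biological replicates, and the methods describe RNA from independent experiments, more of them than arrays in a group. Arrays of both groups share sample numbers, but whether these mark shared cell preparations is not stated, so p-values measure only the spread between these samples, which may be technical.

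GDP-mannose is made from fructose 6-phosphate by an isomerase, a mutase and a pyrophosphorylase, and it supplies the mannose of N-linked glycans, GPI anchors and, through a further branch, GDP-fucose. UDP-N-acetylglucosamine, the product of the hexosamine pathway, supplies the first sugars of N-linked glycans, the O-GlcNAc mark on intracellular proteins and the precursor of sialic acid. Inositol synthesis draws on glucose 6-phosphate, so all these routes leave the same pool of hexose phosphates. In cardiac myocytes the sugar nucleotides serve, among other uses, the secretory pathway, which glycosylates channels, receptors and matrix proteins.

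Fbxo32 had log2 signals of 13.55 and 13.47 on the Ad-atrogin-1 arrays, against 5.24 and 5.04 on the Ad-GFP arrays, as the labels say, although viral and endogenous atrogin-1 RNA give 1 joint signal. Array medians lay between 5.51 and 5.52, and Pearson correlations over all probe sets were 0.992 within both groups and 0.987 to 0.988 between them. Of 14 cardiomyocyte markers, 13 were measured, with group means between 8.94 and 13.67, above the upper quartile of the arrays. Their median log2 fold change was 0.34, against -0.0028 over all genes, and none was called. An unadjusted limma p under 0.05 was seen at 3 of the 13, against 13.4% of all genes. Both Ad-atrogin-1 arrays lay above both Ad-GFP arrays at 6 and below at 1, against 20.7% and 22.3% of all genes. Their summed linear signal was 54542.5 to 69013.2 in Ad-atrogin-1 and 55403.5 to 59225.8 in Ad-GFP samples. None of the 45 measured markers of 7 other cell types passed limma (5 had an unadjusted p under 0.05, as had 13.4% of all genes). The summed signal of the fibroblast markers was 12783.8 to 13459.2 in Ad-atrogin-1 and 10537.4 to 13751.2 in Ad-GFP samples. For the smooth muscle and pericyte markers it was 9354.55 to 9933.25 in Ad-atrogin-1 and 9299.83 to 10034.1 in Ad-GFP samples. RNA of some of these markers was thus abundant in both groups. In the smooth muscle and pericyte list Des, Acta2, Tagln and Cnn1 had log2 group means of 9.45 to 12.29. Rgs5, Myh11, Pdgfrb and Cspg4 had 6.46 to 7.71. The sums do not show which cells the RNA came from. The summed linear signal of 7 epithelial and mesothelial markers was 405 to 455 in Ad-atrogin-1 and 251 to 293 in Ad-GFP samples, and that of 3 Schwann and glial markers 121 to 123 in Ad-atrogin-1 and 124 to 130 in Ad-GFP samples. In the epithelial list Krt19 had 7.89 and 8.09 in Ad-atrogin-1, against 3.20 and 5.48 in Ad-GFP samples, and was not called. Krt18 went the other way, with 6.06 and 6.33 in Ad-atrogin-1, against 7.47 and 6.58 in Ad-GFP samples. Krt8, Msln, Wt1 and Cdh1 overlapped between the groups, and Epcam was lower in Ad-atrogin-1 by a log2 fold change of -0.04. Group means of Epcam and Cdh1 were 2.49 to 2.60, below each array's lower quartile, those of Krt8, Msln and Wt1 were 4.51 to 5.42, above it, and no log2 signal was at 0. The summed signals of the 5 other lists overlapped between the groups. The part of these cells in the results below was not tested. In bulk samples fewer cells of a type and less RNA per cell cannot be told apart.

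Isyna1 and Gmppb differed most, 4.41-fold and 3.52-fold higher in Ad-atrogin-1 cardiomyocytes, and the members ranged from there to Pmm1, which was 1.25-fold lower. Both Ad-atrogin-1 arrays lay above both Ad-GFP arrays at 6 of the 8 genes, Isyna1, Gmppb, Nans, Slc33a1, Gmppa and Pmm2, and below them at Mpi and Pmm1. Over all genes 20.7% lay above and 22.3% below in this way. Called here means an adjusted p under 0.05 from limma, a moderated test that shares the variance across probe sets, and a change of at least 2-fold. By that rule 2 of the 8 members, Isyna1 and Gmppb, were called higher, against 0.457% of all genes (65 of 14217), and none was called lower, against 0.0563% (8 genes). After a further quantile normalization the split over all genes was 74 higher and 20 lower. Of their 14 probe sets, 3 were called higher and none lower, against 0.248% and 0.0258% of all probe sets, and 11 had the Ad-atrogin-1 pair wholly above the Ad-GFP pair, against 18.3%. Because the members were picked by this same contrast, nothing is read from these counts. With any 1 of the 4 arrays left out, with the replicate number as a block or with the methods' t-test and adjusted p, 0 members were called. The median log2 fold change was 0.78 over the 8 members and -0.0028 over all genes. Ranked by log2 fold change among 14217 genes from the highest, Isyna1 stood at 17, Gmppb at 26, Nans at 108, Slc33a1 at 156, Gmppa at 373 and Pmm2 at 810, while Mpi stood at 11805 and Pmm1 at 13029. The mean signals of the 8 genes lay between the 54.7 and the 84.4 percentile of all genes.

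**Figure D1:**
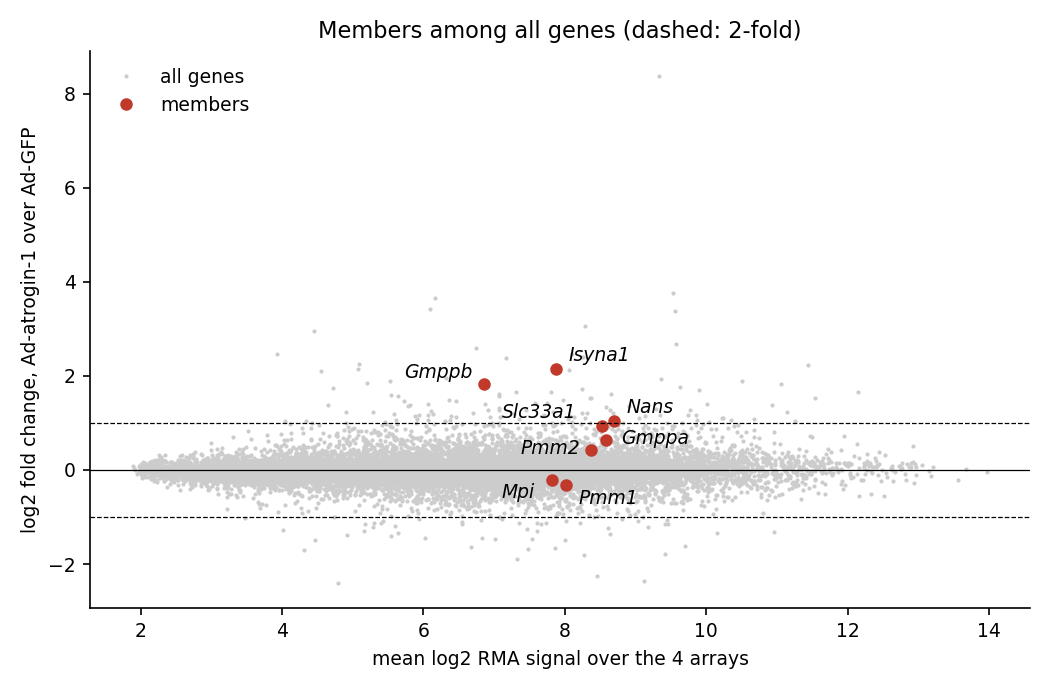
The vertical axis gives the log2 fold change, Ad-atrogin-1 minus Ad-GFP, and the horizontal axis the log2 signal averaged over all 4 arrays, for 14217 genes in grey, with the 8 measured members in red and dashed lines at 2-fold. Isyna1 (2.14) and Gmppb (1.82) lie well above the upper line, Nans (1.03) just above it, and Mpi (-0.21) and Pmm1 (-0.33) below 0.

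The windows before the starts of these genes were searched for the elements through which ER stress factors are known to act in other secretory pathway genes. The windows are 250 bases before the annotated start, from RefSeq on rat build GRCr8, which holds all 10 members and 33469 genes in all. Those of the 3 members with at least 2-fold higher signals and of Pmm1, the member with the largest negative difference, are shown 5′ to 3′ on the strand of the gene. Capitals mark CCAAT, the box bound by NF-Y, and CCACG, the second box of the ER stress response element (ERSE), on either strand (ATTGG and CGTGG on the opposite one).
Isyna1 (chr16:18875956-18876205, minus strand): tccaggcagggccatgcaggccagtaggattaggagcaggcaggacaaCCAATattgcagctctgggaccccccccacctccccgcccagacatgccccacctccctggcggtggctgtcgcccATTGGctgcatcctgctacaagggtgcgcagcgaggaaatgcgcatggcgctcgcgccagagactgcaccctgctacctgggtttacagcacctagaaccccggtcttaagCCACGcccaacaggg
Gmppb (chr8:117616155-117616404, plus strand): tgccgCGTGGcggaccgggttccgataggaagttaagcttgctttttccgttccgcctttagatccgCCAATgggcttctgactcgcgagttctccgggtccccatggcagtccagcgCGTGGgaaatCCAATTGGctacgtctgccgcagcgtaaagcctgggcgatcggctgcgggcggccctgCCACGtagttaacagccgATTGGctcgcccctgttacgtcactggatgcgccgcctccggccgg
Nans (chr5:65575774-65576023, plus strand): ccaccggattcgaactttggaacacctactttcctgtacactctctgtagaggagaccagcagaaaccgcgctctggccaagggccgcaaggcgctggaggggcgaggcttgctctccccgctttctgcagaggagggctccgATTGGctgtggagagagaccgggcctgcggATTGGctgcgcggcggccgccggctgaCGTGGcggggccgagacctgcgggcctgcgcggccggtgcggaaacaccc
Pmm1 (chr7:115357025-115357274, minus strand): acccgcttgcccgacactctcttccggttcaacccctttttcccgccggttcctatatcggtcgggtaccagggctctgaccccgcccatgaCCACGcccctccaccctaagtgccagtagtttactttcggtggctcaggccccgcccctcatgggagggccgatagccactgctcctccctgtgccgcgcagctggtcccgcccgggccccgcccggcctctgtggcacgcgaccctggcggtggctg

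CCACG was found in 7 of the 10 windows (Gfpt1, Gmppa, Gmppb, Isyna1, Nans, Pmm1 and Slc33a1), against 27.2% of all windows, and CCAAT in 5 (Gfpt1, Gmppb, Isyna1, Nans and Uap1), against 34.0%. The windows of Isyna1, Gmppb and Nans held both, as did that of Gfpt1, and Gmppb held 4 CCAAT and 3 CCACG matches, of which a CCAAT on each strand overlap. Neither word was found in the windows of Mpi and Pmm2, while Pmm1, which was not higher, held CCACG. In Isyna1 the CCACG lies 15 to 11 bases before the start. The complete ERSE, CCAAT and CCACG with 9 bases between them, was found in no member (0.0657% of all windows), nor was ERSE-II, ATTGG and CCACG with 1 base between them (0.0418%); both contain the words above. The XBP1 element TGACGTGG was found in Nans alone, 53 to 46 bases before the start, where it overlaps the CCACG match, against 0.52% of all windows. TGATGNAA, the core of the composite element bound by ATF4 and C/EBP factors, was found in no member (3.4% of all windows). The GC content of the windows was 50% to 72.4% in the members, with a median of 64.4%, against a median of 51.2% over all windows. The shares over all windows thus come from windows less rich in GC, and none was taken at matched GC content. A match shows only that these letters are there.

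**Figure D2:**
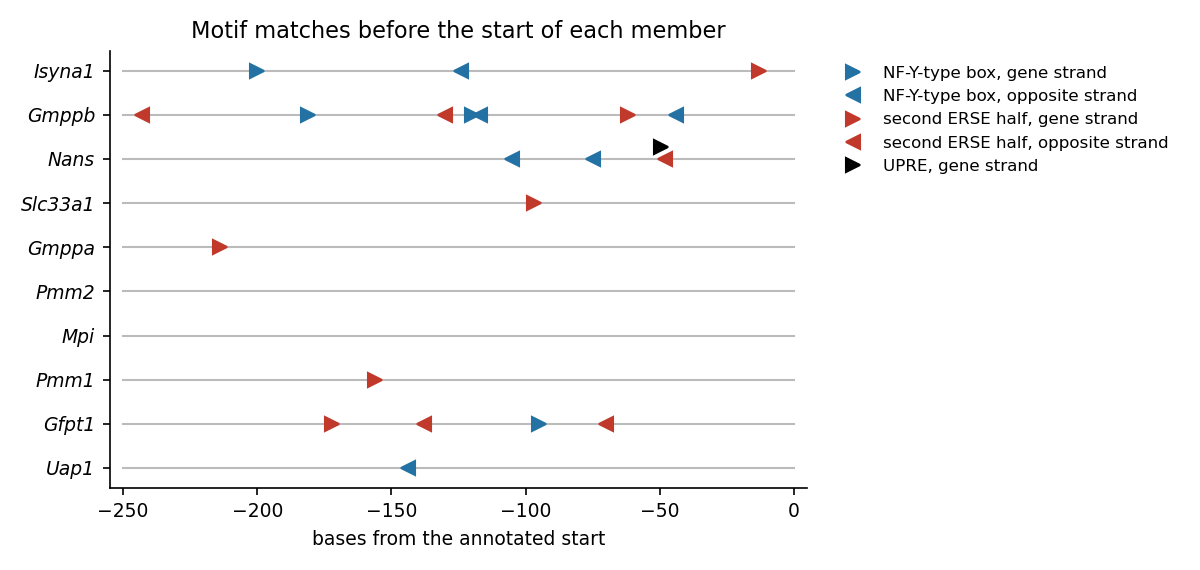
Position of each match in the 250 bases before the start of the 10 members (horizontal axis, bases from the annotated start, 1 line per gene, measured genes first in order of log2 fold change), with arrows for the strand. Blue marks CCAAT (NF-Y-type box), red CCACG (second box of the ERSE) and black the XBP1 element (UPRE), and the lines of Pmm2 and Mpi are empty.

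Along the GDP-mannose route the members differed in both directions. Mpi encodes mannose phosphate isomerase, which turns fructose 6-phosphate into mannose 6-phosphate. Its log2 signals were 7.80 and 7.63 on the Ad-atrogin-1 arrays, against 7.87 and 7.97 on the Ad-GFP arrays. The Ad-atrogin-1 values were thus the lower pair, by a log2 fold change of -0.21 (standard error 0.13), although the closest values of the groups were only 7.80 and 7.87.

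Phosphomannomutase, which makes mannose 1-phosphate, is encoded by the paralogs Pmm1 and Pmm2, and the human disorder of glycosylation tied to the enzyme is caused by PMM2. Pmm1 had signals of 7.78 and 7.92 in Ad-atrogin-1, against 8.05 and 8.31 in Ad-GFP cardiomyocytes, a log2 fold change of -0.33 (standard error 0.14). Its groups did not overlap, with Ad-atrogin-1 the lower. The brighter Pmm2 probe set had 8.45 and 8.72 in Ad-atrogin-1, against 8.10 and 8.21 in Ad-GFP, and the dimmer one 7.10 and 7.47, against 6.77 and 6.81. Here Ad-atrogin-1 was the higher group at both probe sets, by 0.43 (standard error 0.14) and 0.50 (0.16) on the log2 scale, so the paralogs differed in sign.

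The last step is taken by GDP-mannose pyrophosphorylase, of which Gmppb encodes the catalytic subunit and Gmppa a related subunit that binds GDP-mannose and restrains the enzyme. Gmppb had log2 signals of 7.86 and 7.66 on the Ad-atrogin-1 arrays, against 6.07 and 5.82 on the Ad-GFP arrays (means 7.76 ± 0.14 and 5.94 ± 0.18, SD, n = 2 each). A second Gmppb probe set had 7.54 and 7.37, against 5.81 and 5.55. The groups stood far apart at both, with log2 fold changes of 1.82 and 1.77 (standard error 0.15 each), and both probe sets were called. Gmppa had 8.86 and 8.95 in Ad-atrogin-1, against 8.21 and 8.33 in Ad-GFP cardiomyocytes. It too was higher on both arrays, by 0.64 (standard error 0.12), 1.56-fold, and was not called.

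**Figure D3:**
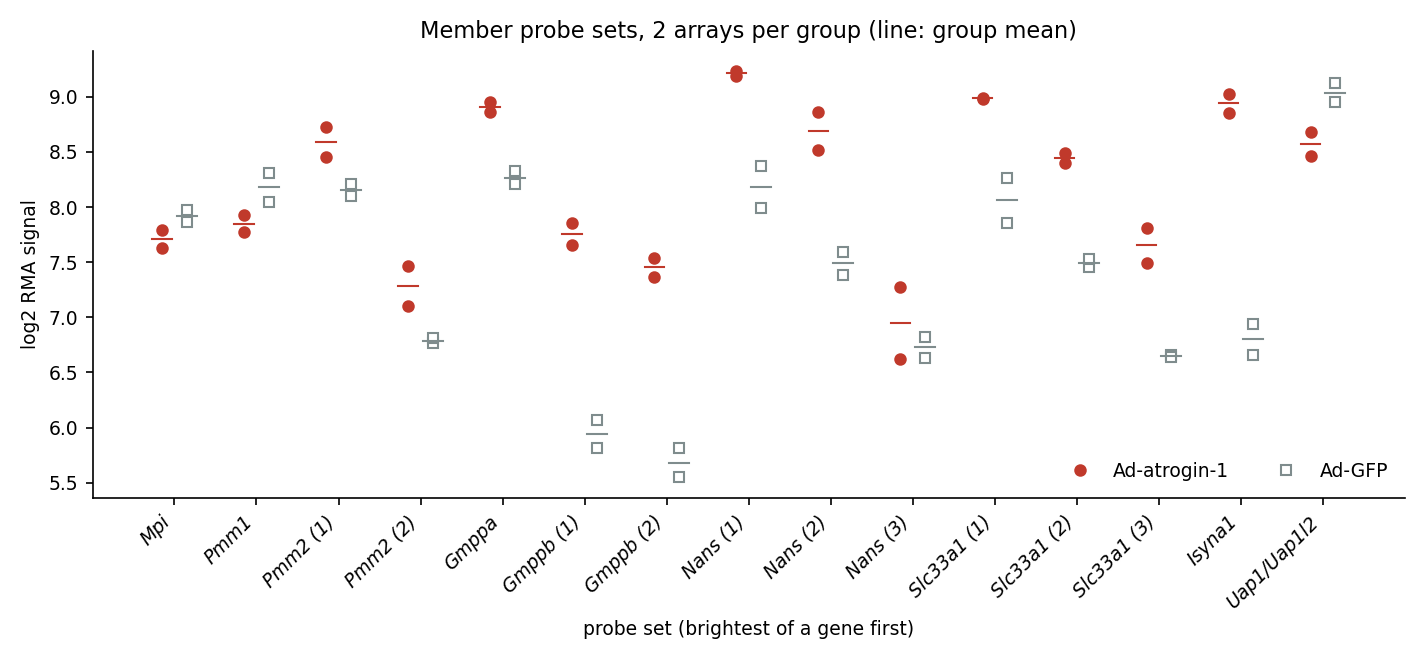
Log2 RMA signal (vertical axis) of the 14 probe sets of the measured members and of the probe set shared by Uap1 and Uap1l2, ordered by role (horizontal axis), with red circles for the 2 Ad-atrogin-1 arrays, grey squares for the 2 Ad-GFP arrays and lines for group means. Red lies above grey at 11 of the 14 probe sets, below it at Mpi and Pmm1, and overlaps it at the dimmest Nans probe set.

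In the hexosamine pathway, Uap1 encodes the pyrophosphorylase that makes UDP-N-acetylglucosamine. The probe set paired with Uap1 and the related gene Uap1l2 had log2 signals of 8.46 and 8.68 on the Ad-atrogin-1 arrays, against 8.95 and 9.12 on the Ad-GFP arrays. The Ad-atrogin-1 pair was lower, by 0.46 on the log2 scale (log2 fold change -0.46, standard error 0.14), and the value cannot be given to either gene. Gfpt1, the entry enzyme of the pathway, has a homolog Gfpt2 that is described with the other pathway genes.

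Nans encodes the synthase that joins N-acetylmannosamine 6-phosphate to phosphoenolpyruvate to form sialic acid phosphate. Its brightest probe set had 9.23 and 9.19 in Ad-atrogin-1, against 7.99 and 8.37 in Ad-GFP cardiomyocytes (means 9.21 ± 0.03 and 8.18 ± 0.27, SD, n = 2 each). The second had 8.52 and 8.87, against 7.38 and 7.60. At both, Ad-atrogin-1 was at least 2-fold higher, with log2 fold changes of 1.03 and 1.20 (standard error 0.16 each), but neither was called. The third and dimmest, whose name carries the suffix that Affymetrix gives to probe sets that can match other transcripts, had 6.62 and 7.27, against 6.63 and 6.82, and its groups overlapped (log2 fold change 0.22, standard error 0.23). With the 3 probe sets averaged, the log2 fold change of Nans was 0.82, under 2-fold.

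Slc33a1 encodes the acetyl-CoA transporter of the ER membrane, whose cargo is used to acetylate gangliosides and proteins in the ER. Its 3 probe sets had log2 fold changes of 0.93, 0.95 and 1.01 (standard errors 0.17, 0.12 and 0.15), so they lay on both sides of 2-fold and close to each other. The brightest had 8.99 and 8.98 in Ad-atrogin-1, against 7.85 and 8.27 in Ad-GFP. The second had 8.49 and 8.40, against 7.46 and 7.53, and the third 7.81 and 7.50, against 6.66 and 6.64. The groups did not overlap at any of the 3, and none was called.

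Isyna1 encodes inositol-3-phosphate synthase, the first and rate-limiting enzyme of inositol synthesis from glucose 6-phosphate. Its log2 signals were 8.85 and 9.03 on the Ad-atrogin-1 arrays, against 6.66 and 6.94 on the Ad-GFP arrays (means 8.94 ± 0.12 and 6.80 ± 0.20, SD, n = 2 each). The difference of 2.14 (standard error 0.15) was the largest of any member, and the closest values of the groups, 8.85 and 6.94, were further apart than the arrays within either group. In order of log2 fold change, the widest steps between neighbours were the 0.79 between Gmppb and Nans (combined standard error 0.22) and the 0.64 between Pmm2 and Mpi (0.19). The other 5 steps were 0.10 to 0.32, with combined standard errors of 0.19 to 0.23. The combined standard errors treat neighbours as independent, although both genes were measured on the same arrays. They therefore do not settle the order, which is not taken as firm.

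The rest of these pathways was described with 7 lists of 64 other genes, of which 61 were measured. Of these, 1 gene, Slc35b1, was called higher and none was called lower, against 0.457% and 0.0563% of all genes. Both Ad-atrogin-1 arrays lay above both Ad-GFP arrays at 18 of the 61 and below at 10, against 20.7% and 22.3% of all genes. The median log2 fold change of the 61 was 0.05, against -0.0028 over all genes. Slc35b1 encodes a carrier of the ER membrane that is related to nucleotide sugar transporters and exchanges ATP for ADP. Its log2 signals were 10.67 and 10.75 on the Ad-atrogin-1 arrays, against 9.32 and 9.28 on the Ad-GFP arrays, a log2 fold change of 1.40 with a standard error of 0.12, or 2.65-fold (limma, adjusted p = 0.0179). It was not called with any 1 array left out or with the replicate number as a block. Of the 61 genes, 11 had an unadjusted p under 0.05, Slc35b1 included, against 13.4% of all genes, and the methods' t-test called none after adjustment.

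The 13 transporter genes measured beside Slc33a1, Slc35b1 among them, had a median of 0.12, with Slc35d2, a carrier of UDP-sugars in the Golgi, lowest at -0.21 (standard error 0.12, adjusted p = 0.524, limma). Among 7 further genes of GDP-mannose use and GDP-fucose synthesis none was called (1 at an unadjusted p under 0.05), and the median was 0.05. Gmds, the first enzyme from GDP-mannose to GDP-fucose, had 6.54 and 7.26 in Ad-atrogin-1, against 5.66 and 6.04 in Ad-GFP, a log2 fold change of 1.05 whose standard error was 0.27 (adjusted p = 0.203, limma). Its groups did not overlap. The dolichol-phosphate mannose synthase genes Dpm1 and Dpm3 had -0.06 (standard error 0.13) and 0.05 (0.15), and Fpgt, which salvages fucose, -0.11 (0.35).

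Among 10 other hexosamine genes none was called (4 at an unadjusted p under 0.05), with a median of -0.03 and values on both sides of 0. Gnpnat1, the acetyltransferase between Gfpt1 and Uap1, had 8.85 and 8.85 in Ad-atrogin-1, against 7.91 and 8.04 in Ad-GFP cardiomyocytes (0.87 on the log2 scale, standard error 0.12, limma adjusted p = 0.0570). Gfpt2 had 7.42 and 7.04, against 7.74 and 8.04, lower on both Ad-atrogin-1 arrays (-0.66, standard error 0.18, adjusted p = 0.231). Oga, which removes O-GlcNAc, had -0.12 (standard error 0.13).

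In the sialic acid list, 6 genes beside Nans had a median of 0.07 and none was called (1 at an unadjusted p under 0.05). Gne, the enzyme that starts the route, had 7.31 and 7.30 in Ad-atrogin-1, against 6.84 and 6.41 in Ad-GFP (0.69, standard error 0.17, adjusted p = 0.192, limma). Cmas, which activates sialic acid with CMP, was at 0.22 on the log2 scale (standard error 0.12) and Npl, which splits it, at -0.43 (0.18).

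Of the 11 genes placed in the inositol list beside Isyna1, 3 had an unadjusted p under 0.05 and none was called, with a median of -0.07. Cdipt, which joins inositol to lipid as phosphatidylinositol, had 9.04 and 8.84 in Ad-atrogin-1, against 9.49 and 9.36 in Ad-GFP, lower on both arrays (-0.49, standard error 0.13, adjusted p = 0.225, limma). Itpk1, an inositol phosphate kinase, had 0.58 (standard error 0.23) and the phosphatase gene Bpnt2 0.17 (0.14).

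Genes of UDP-glucose, UDP-galactose and UDP-glucuronate (7 measured, median -0.0043) and of hexose phosphate supply (7 measured, median 0.18) gave no call and no unadjusted p under 0.05. Ugp2, the UDP-glucose pyrophosphorylase, had 0.21 (standard error 0.11), the phosphoglucomutase gene Pgm1 0.05 (0.11) and Galt, of galactose use, -0.22 (0.18). The glycolytic genes Pfkl, Gpi and Pfkp had 0.41 (standard error 0.26), 0.21 (0.20) and 0.16 (0.13), and the hexokinase gene Hk1 -0.24 (0.15).

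**Figure D4:**
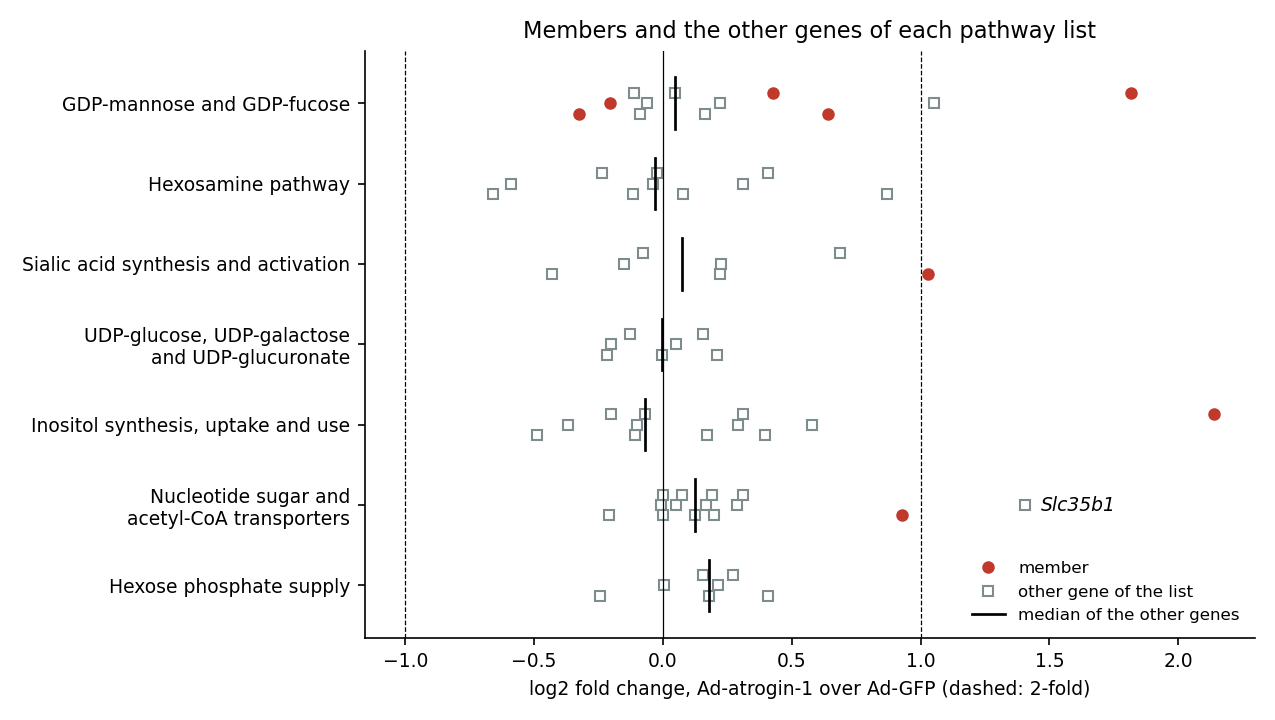
Each row of the vertical axis is 1 of the 7 lists and the horizontal axis is the log2 fold change, Ad-atrogin-1 minus Ad-GFP, with members as red circles, other genes as grey squares, black bars for the median of the other genes and dashed lines at 2-fold. The medians lie between -0.07 and 0.18, and of the other genes Slc35b1 (1.40) and Gmds (1.05) lie beyond the upper line.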

How the data were processed

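RNA of 2 Ad-atrogin-1 and 2 Ad-GFP samples was measured on Affymetrix rat genome arrays, 1 per sample. The deposited values are log2 signals per probe set, which the authors computed by RMA within GeneSpring GX. They were used unchanged, minus 57 control probe sets, and dim probe sets were kept. Genes were assigned from the platform annotation (20826 with 1 gene, 436 with several, 9780 with none). The test was the two-sided moderated test of limma 3.58.1 (R 4.3.3) without a block, fitted over 31042 probe sets. Each gene was represented by its brightest probe set over all arrays, and p was adjusted by Benjamini-Hochberg over 14217 genes, or over all probe sets for a member's further probe sets. Standard errors come from the same fit. The number of arrays limits the precision, and no background level was estimated.

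The members and lists were chosen with earlier results of these data known. The genes named are Fbxo32, every member, and genes of each pathway list. In a list these are the genes called or, where none is, the 2 with the highest mean signal. Those with the largest positive and negative log2 fold change are added. The epithelial, mesothelial, smooth muscle and pericyte markers were named after their values were seen. Alternatives covered the scaling (arrays centred on their medians, or quantile-normalized again), the probe sets tested (the brightest 60%), the summary per gene (mean over its probe sets), the variance prior (with a trend on intensity), the test (the methods' t-test, taken as one with equal variances, with adjusted or unadjusted p), the fold threshold (1.5 or none), a block on replicate number, and leaving out each array. Scripts were tested on simulated data. Promoter windows come from RefSeq (GRCr8).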

Additional observations from a re-analysis of the deposited data

How the results depend on the processing

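The log2 fold changes of the 8 members kept their sign under all 14 alternatives, with ranges of 2.00 to 2.28 for Isyna1, 1.69 to 1.94 for Gmppb, 0.82 to 1.22 for Nans, 0.72 to 1.13 for Slc33a1, 0.58 to 0.70 for Gmppa, 0.29 to 0.56 for Pmm2, -0.29 to -0.12 for Mpi and -0.46 to -0.20 for Pmm1. The calls moved more. With each array left out in turn, 0 members, 0 of their probe sets, 0 other pathway genes, 0 to 1 genes higher (Fbxo32 alone) and 0 genes lower were called, where 2, 3, 1, 65 and 8 were called on all 4 arrays; 1263 to 1521 genes then had an unadjusted p under 0.05. With the methods' t-test and adjusted p all these counts were 0 (1339 genes at an unadjusted p under 0.05), and with unadjusted p it called 3 members, 6 member probe sets, 96 genes higher and 21 lower. The replicate number as a block gave 0 members, 0 member probe sets, 0 other pathway genes, 1 gene higher (Fbxo32) and 0 lower (1842 at an unadjusted p under 0.05), with 1 residual degree of freedom fewer. The deviations of same-numbered arrays correlated by 0.04 over all probe sets. With only 2 pairs, and because it can miss preparations that differ at some genes only, this value does not settle whether the numbers pair the samples. The main fit was run without the block. Over all genes, 80 were called higher and 18 lower with arrays centred on their medians, 74 and 20 after quantile normalization, and 70 and 13 with probe sets averaged, each with 2 members called. The cause of these shifts was not tested. The 4 arrays limit the precision of every value.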
